A study of Mus musculus with 168 samples.

Results

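Transcripts of 10 genes of the perineural extracellular matrix and of matrix-associated (matricellular) glial proteins were followed in single cells of the old mouse brain. The genes are Bcan, Ncan, Vcan, Cspg5, Tnc, Tnr, Hapln1, Ptprz1, Sparc and Sparcl1. They were taken by name, 10 of the 42405 gene symbols measured. The data are 150 cells of male C57BL/6 mice read by Smart-seq2, which covers whole transcripts of 1 cell at a time. Striatum gave 13 astrocytes and cortex gave 4. Both sets were sorted as GLAST positive, CD45 negative and O4 negative from mice labelled 25 months old, with cells of 3 to 4 mice pooled. The subventricular zone (SVZ), the stem cell layer beside the lateral ventricle, gave 68 cells of a column-name series called ogp and 65 of one called ogp2. These also had to be CD133 positive and came from mice labelled 23 months old in the sample labels and 22 months old in the protocol, with 4 mice pooled per replicate. No genetic change or treatment separates the groups, and cells were picked by hand. Astrocytes and SVZ cells were labelled with different ages, passed different gates and stand in separate tables, so that tissue and these factors cannot be told apart.

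The unit is TPM, each transcript's share of a cell's transcripts scaled to 1000000, which is corrected for transcript length, so that levels can be set side by side between genes. TPM keeps no read depth, and the depth behind each cell is unknown. No animal or pool is named for any cell, so the cells of a group cannot be sorted into replicates: no p-value or standard error is given, and an SD describes how cells spread. Column names split the striatal cells as well, into 11 OGStr and 2 OStr cells. A gene is called different when its mean TPM plus 1 differs by 2-fold or more, among genes that average 10 TPM or more in either group. A cell is said to have a transcript when it holds 1 TPM or more, and each interval on a share is the exact 95% interval of Clopper and Pearson, for counting error only. Cell identity was checked by markers. All 10 astrocyte markers looked up were detected in striatum, in cortex and in SVZ, and Slc1a3, which encodes GLAST, was detected in all 150 cells. In striatum, and likewise in cortex, 5 of the 7 markers of oligodendrocyte progenitors and 7 of 8 markers of endothelium were listed at 0 in every cell. The other 2 progenitor markers summed to between 0 and 93.95 TPM in striatum and to between 0 and 528 TPM in cortex. Markers of further cell types were not all absent. Their highest sums in a striatal cell were 785.9 TPM (ependymal), 385.99 (oligodendrocyte), 290.6 (neuroblast), 238.1 (microglia), 178.7 (mural) and 21.2 (fibroblast). In cortex they were 71.67, 261.8, 276.35, 237.2, 0.39 and 0 TPM, in the same order. Striatal medians were 74.64 TPM for ependymal, 155.4 for oligodendrocyte and 56.28 for mural markers, and 0 for neuroblast, microglia, fibroblast and neuron markers.

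The chondroitin sulfate proteoglycans of the lectican family bind hyaluronan through their head domain and tenascins through their tail, and link proteins clamp the lectican head to hyaluronan. Bcan encodes brevican, Ncan neurocan and Vcan versican, which are lecticans, and Hapln1 encodes a link protein. Tnc and Tnr encode the tenascins C and R that crosslink this lattice. Cspg5 encodes neuroglycan C, a membrane proteoglycan, and Ptprz1 encodes a receptor tyrosine phosphatase whose secreted form is the proteoglycan phosphacan and whose ligands include pleiotrophin. Sparc and Sparcl1 encode matricellular glycoproteins, and astrocytes are known to release both, Sparcl1 (hevin) being known as a factor that favours synapse formation and Sparc as its antagonist. Lecticans, link proteins and tenascins are parts of perineuronal nets and of the looser matrix around glia. Several of the molecules named here are also made in the adult neurogenic niche.

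Promoter sequence was available from RefSeq (GRCm38.p6) for 8 of the 10 genes. The 3 shown here, each 250 bases upstream of the RefSeq start, 5′ to 3′ on the gene's strand, belong to a lectican and a link protein gene that were low in ribosome-rich SVZ cells and to the receptor gene that was not, as described further on. Capitals mark CpG dinucleotides.
Bcan, chr3:88000357-88000606, minus strand: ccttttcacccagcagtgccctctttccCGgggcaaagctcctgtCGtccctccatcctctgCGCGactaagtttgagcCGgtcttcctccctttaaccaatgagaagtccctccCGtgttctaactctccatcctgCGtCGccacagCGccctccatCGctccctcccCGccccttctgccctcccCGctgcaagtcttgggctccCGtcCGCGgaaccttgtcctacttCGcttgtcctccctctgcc
Hapln1, chr13:89540386-89540635, plus strand: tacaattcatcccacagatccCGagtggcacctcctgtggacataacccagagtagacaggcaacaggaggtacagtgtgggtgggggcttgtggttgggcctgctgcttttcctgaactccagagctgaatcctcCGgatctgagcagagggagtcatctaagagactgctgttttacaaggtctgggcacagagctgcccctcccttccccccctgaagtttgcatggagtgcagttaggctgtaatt
Ptprz1, chr6:22875252-22875501, plus strand: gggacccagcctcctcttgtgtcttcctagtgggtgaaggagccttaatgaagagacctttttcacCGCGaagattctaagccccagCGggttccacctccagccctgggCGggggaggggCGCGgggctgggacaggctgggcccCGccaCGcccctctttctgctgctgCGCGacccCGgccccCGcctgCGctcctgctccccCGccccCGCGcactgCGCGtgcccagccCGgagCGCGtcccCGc
The Bcan window holds 16 CpG dinucleotides and 62% G or C, the Hapln1 window 2 and 54.4%, and the Ptprz1 window 22 and 71.6%, against medians of 6 and 52.4% over the 32841 promoters of the table. The Hapln1 window lies inside the gene as GENCODE draws it, and so does the Sparc window. Short motifs were looked up on both strands, and no match overlapped another. The NFI site TTGGCA is present in 12.3% of all windows of this length. The SOX site ACAATG is present in 10.7%. The E-box CAGCTG is present in 13% of them. The TATA box TATAAA is present in 12.4%. These letters are not in the Bcan, Hapln1 or Ptprz1 window. The Ncan window holds the NFI site, the E-box and, on the opposite strand, the TATA box, and the Sparc window holds the E-box. Tnc has 2 windows that overlap, and the TATA box found in both is the same site. Window 2 also holds the NFI site on the opposite strand. A match is a description of the sequence only.

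Several of the genes lie beside genes of partner proteins (GENCODE, GRCm38). Hapln1, at chr13:89539796-89611652 on the plus strand, lies 43659 bases from Vcan, at chr13:89655312-89742509 on the minus strand. Bcan, at chr3:87987531-88000230, lies 21519 bases from the link protein gene Hapln2, and Ncan, at chr8:70093085-70120873, lies 2222 bases from Hapln4. Levels of such neighbours were unlike each other in these cells. Hapln2 and Hapln4 reached 1 TPM in none of the 150 cells, while Bcan was present in 143 and Ncan in 135 of them. Acan, the remaining lectican, reached 1 TPM in 1 SVZ cell, and its neighbour Hapln3 in 8 SVZ cells and in no astrocyte. Ptprz1 lies at chr6:22875502-23052916, Sparc at chr11:55394500-55423183, Sparcl1 at chr5:104079111-104113733 and Cspg5 at chr9:110243783-110262576. Tnr, at chr1:159523769-159931729, shares exon sequence with Gm38039 on the opposite strand, which averaged 12.8 TPM over all cells. Smart-seq2 does not mark strand, so reads of these 2 genes cannot be told apart where they overlap.

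The 10 genes covered a wide range of levels, in nearly the same order in each tissue. Sparcl1 stood first and Bcan next everywhere, with 56.2% and 30.2% of the summed TPM of the 10 genes in striatum, 48.3% and 30.05% in cortex, and 50.2% and 27.9% in SVZ. The mean sum was 6925 TPM per cell in striatum (SD 1161, n = 13), 4659.5 in cortex (SD 424, n = 4) and 5052 in SVZ (SD 2682). Sparc, Cspg5, Ptprz1 and Ncan formed a middle tier of 92.1 to 454 TPM. Vcan, Tnc and Tnr averaged under 10 TPM in each tissue.

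**Figure D1:**
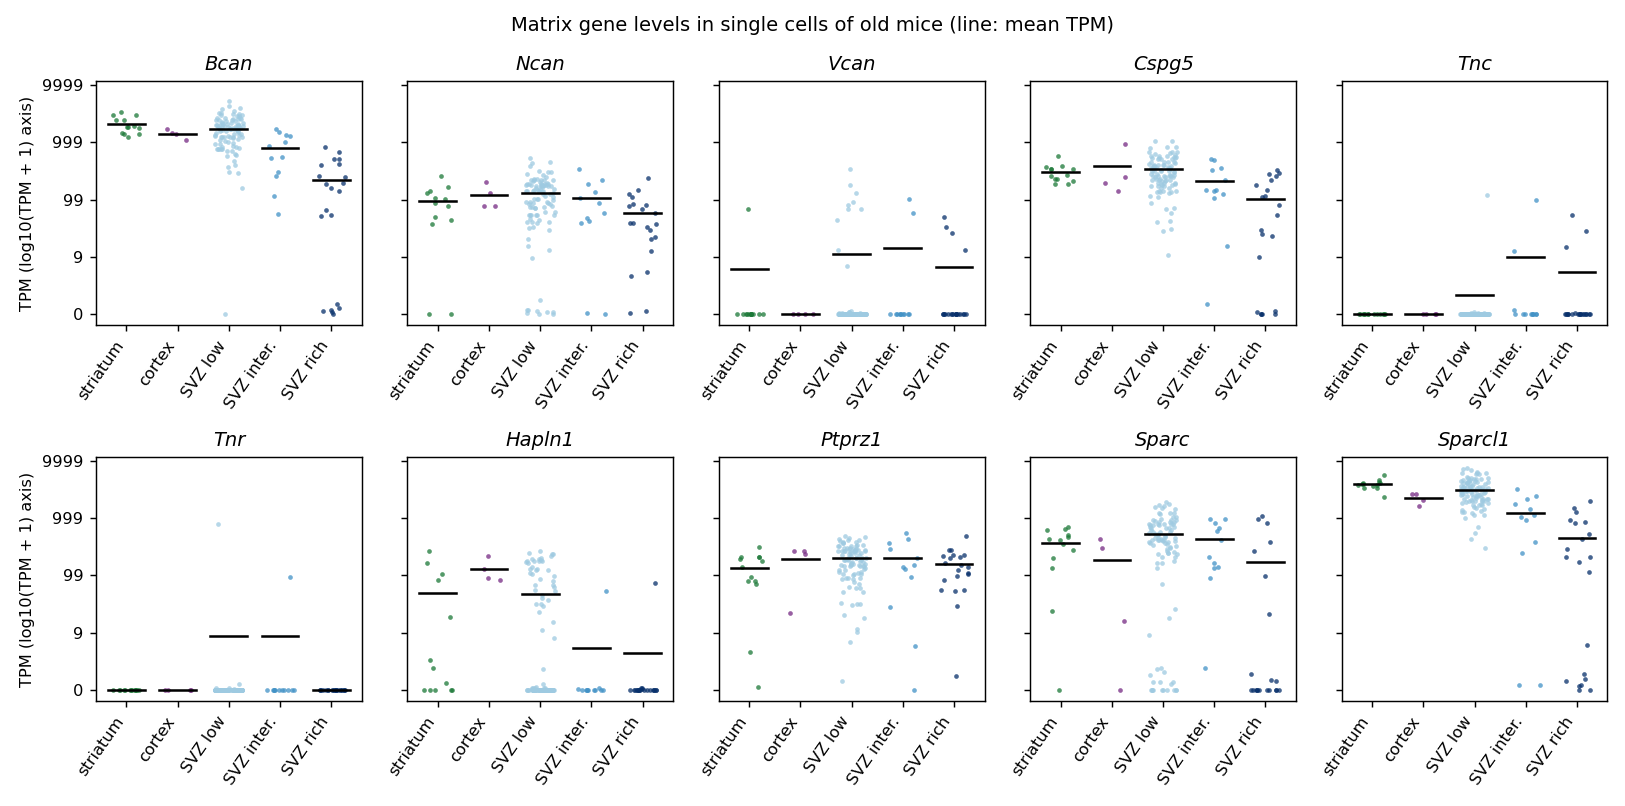
TPM of each of the 10 genes in single cells (points), on a log10(TPM + 1) axis, for striatum, cortex and the SVZ classes of low, intermediate and rich ribosomal protein share; black lines are mean TPM. Bcan and Sparcl1 have the highest means in astrocytes and low-ribosome SVZ cells and spread downwards in ribosome-rich cells, while Ptprz1 keeps a similar range in all 5 columns.

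Striatal and cortical astrocytes were first set against all SVZ cells. In striatum 0 of the 7 genes that passed the level filter differed 2-fold from SVZ in either direction, where 40.6% of all 9080 filtered genes did. Among genes of 100 TPM or more in either tissue, where most of these genes lie, the share was 20.4%. The genes under the filter were Vcan, Tnc and Tnr. The median of the other 7 was 0.08 (log2 of striatum over SVZ), and that of all filtered genes was -0.26. With logs averaged over cells in place of TPM, Bcan (log2 1.397) and Sparcl1 (1.64) were past 2-fold, higher in striatum.

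Among the lecticans, Bcan ranged over 1255, 1843 and 3407 TPM (lowest, median and highest of 13 cells) in striatum, was 1081, 1388, 1438 and 1694 TPM in the 4 cortex cells, and ranged over 0, 1294 and 5211 TPM in SVZ. The highest and lowest Bcan cells were thus both SVZ cells, and the range of SVZ contained that of the astrocytes. The log2 ratios were 0.57 for striatum over SVZ and -0.01 for cortex over SVZ. Ncan had a lower level, 0, 87.2 and 258 TPM in striatum, 76.9, 77.4, 128.5 and 199 TPM in cortex, and 0, 91.5 and 536 TPM in SVZ, with log2 ratios of -0.35 and 0.03. The groups overlapped throughout. Vcan was detected in 1 of 13 striatal cells, at 67.6 TPM, in 0 of 4 cortex cells (interval up to 60.2%) and in 16 SVZ cells (12.03%, interval 7.04 to 18.8%).

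The link protein gene Hapln1 was detected in all 4 cortex cells, at 83.4, 89.6, 125.8 and 214 TPM. In striatum 7 of 13 cells had it (53.8%, interval 25.1 to 80.8%), with 2 of these under 10 TPM, and 43 SVZ cells did (32.3%, interval 24.5 to 40.98%). Mean levels were 48.9 TPM in striatum (SD 82.98), 128.1 TPM in cortex (SD 59.98) and 36.2 TPM in SVZ (SD 67.7). Over the cells that had the transcript, the median was 83.1 TPM in striatum and 107.7 TPM in cortex. Cortex was higher than SVZ (log2 1.80), and the interval on 4 of 4 cells reaches down to 39.8%, so the share in cortex is loosely fixed.

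Of the 2 proteoglycans outside the lectican family, Cspg5 was detected in all 17 astrocytes, at 185, 267 and 579 TPM (lowest, median and highest) in striatum and 139, 197, 249 and 926 TPM in cortex, against 0, 253 and 1068 TPM in SVZ. The highest cortex cell stood alone, and the other 3 lay within the striatal range or just under it. Ptprz1 was at 0.11, 137 and 313 TPM in striatum, 20.7, 233, 262 and 262 TPM in cortex, and 0, 172 and 538 TPM in SVZ. Neither gene differed 2-fold between either astrocyte group and SVZ: Cspg5 had log2 ratios of 0.08 and 0.39, and Ptprz1 of -0.48 and 0.03, for striatum and cortex over SVZ.

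Of the matricellular genes, Sparcl1 was at 2326, 3881 and 5566 TPM in striatum and 1648, 2097, 2603 and 2660 TPM in cortex, against 0, 2367 and 7496 TPM in SVZ. Only 1 of the 13 striatal cells was below the highest cortex cell. Sparc was at 0, 412 and 688 TPM in striatum, 0, 14.9, 299 and 433 TPM in cortex, and 0, 387 and 1876 TPM in SVZ. Cortex was lower than SVZ in Sparc (log2 -1.28), and without cortex replicate 3 or 4 the ratio was -0.89 or -0.87 and no longer reached 2-fold. Hapln1 and Sparc were the 2 of 7 filtered genes that differed 2-fold between cortex and SVZ, against 64.1% of all filtered genes. Among genes of 100 TPM or more in either tissue, the share was 43.2%.

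**Figure D2:**
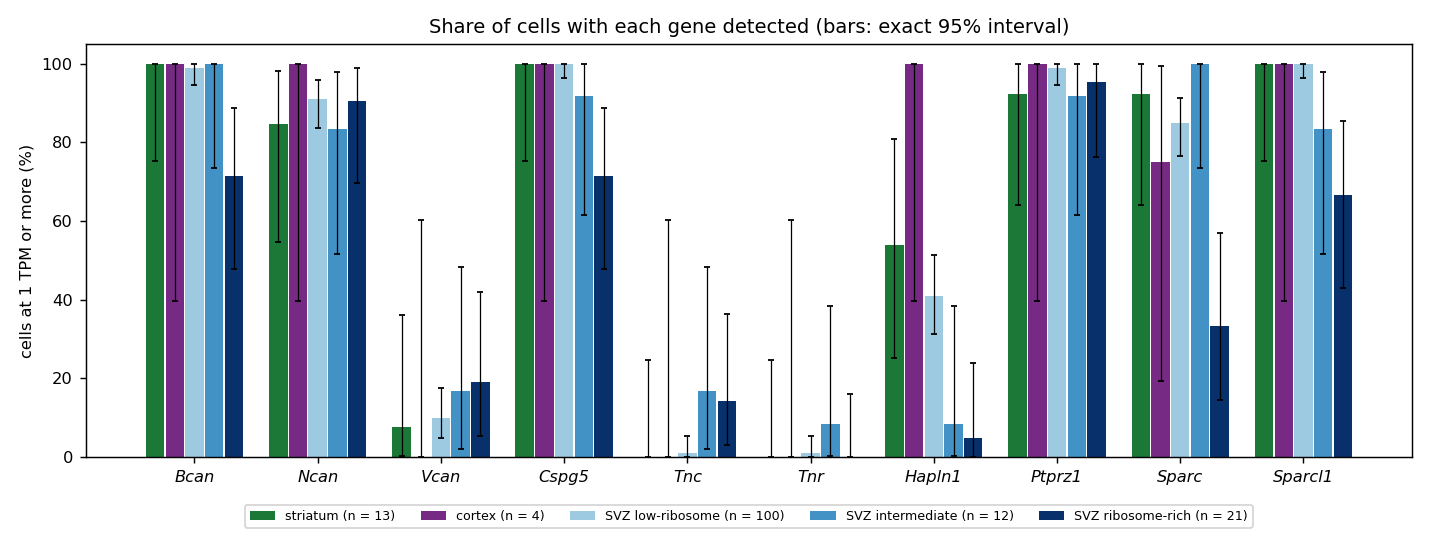
Share of cells (percent) with 1 TPM or more of each gene in striatum, cortex and the 3 SVZ classes; lines are exact 95% intervals over cells. Bcan, Cspg5, Sparcl1, Hapln1 and Sparc have their lowest bar in ribosome-rich SVZ cells, and Ncan and Ptprz1 stay above 80% in every group.

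Striatum and cortex could be set against each other within the same age and gate. Hapln1 was the 1 of 7 filtered genes past 2-fold, at 48.9 TPM in striatum against 128.1 TPM in cortex (log2 -1.37), where 67.2% of all filtered genes were past it. Sparcl1, Sparc and Bcan were higher in striatum by less than 2-fold, at log2 0.79, 0.95 and 0.58. Without cortex replicate 1 or 2 Sparc was past 2-fold as well, at 1.78 and 1.27.

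SVZ cells were also ordered by their share of ribosomal protein transcripts, since the study concerns quiescence of stem cells. The share of a cell's TPM in 82 cytosolic ribosomal protein genes ran over 0.675, 1.85 and 15.2% (lowest, median and highest of the SVZ cells). Cells under 3% are called low-ribosome (100 cells), those of 3 to under 6% intermediate (12 cells) and those of 6% or more ribosome-rich (21 cells). The classes are ranges of a continuous score: 11 cells lay within 0.5 percentage points of the lower limit and 3 within 0.5 of the upper. Of the 21 ribosome-rich cells, 8 had 5 or more of 12 mitosis genes and are called mitotic. The same held for 2 of the 12 intermediate cells and 0 of the 100 low-ribosome cells. In 5 ogp cells, 4 of them low-ribosome and 1 ribosome-rich, the listed genes summed to at most 309864 TPM as deposited, far under the other cells, and all cells were brought to the same sum. Several measures moved with the classes, and their part in the results below was not tested. The median number of genes detected was 3214.5 in low-ribosome, 4066.5 in intermediate and 6285 in ribosome-rich cells. The summed TPM of 10 astrocyte markers was 3071 to 33471 in low-ribosome cells (median 19621), 1125 to 21454 in intermediate cells (median 10313) and 299 to 16111 in ribosome-rich cells (median 1364). The sum of 8 neuroblast markers was 0 to 141 TPM in low-ribosome cells (median 0), 0 to 391 TPM in intermediate cells (median 48.4) and 0 to 1205 TPM in ribosome-rich cells (median 252). Of these markers 4 were detected in the low-ribosome class and all 8 in the ribosome-rich class. The sum of 8 markers of activated stem cells and of the cell cycle had medians of 0.845, 189 and 1529 TPM in the same order of classes. Ependymal markers, 7 in number, had medians of 174, 0 and 0 TPM in that order and summed to 2255 TPM in 1 low-ribosome cell. For 8 oligodendrocyte markers the medians were 146, 279 and 70.7 TPM, and the highest sum was 1675 TPM, in a low-ribosome cell.

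Most of the matrix genes were lower in ribosome-rich cells. Of the 8 genes that passed the level filter, 6 were 2-fold or more lower in ribosome-rich than in low-ribosome SVZ cells and 0 were higher, where 23.0% of all 9288 filtered genes were lower and 26.8% were higher. At 100 TPM or more 24.1% of genes were lower. Among the 6 lower genes, Hapln1 alone passed the filter only through the low-ribosome class, at 46.9 TPM against 3.40 TPM. Its call is therefore not separate from the filter. Tnc and Tnr were under the filter, and without 2 cells with markers of oligodendrocyte progenitors, described with the tenascins, Vcan was too, which leaves 6 of 7. Without the 5 cells of low column sums the count was 7, Vcan included (log2 -1.30), and Bcan was at -2.92. The median of the 8 was -1.65 (log2 of ribosome-rich over low-ribosome cells), against 0.16 for all filtered genes. The summed TPM of all 10 genes averaged 6114 in low-ribosome cells (SD 2037), 2996 in intermediate cells (SD 1665) and 1169.6 in ribosome-rich cells (SD 1196), though in the last class the sum ran from 29.2 to 3779 TPM.

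**Figure D3:**
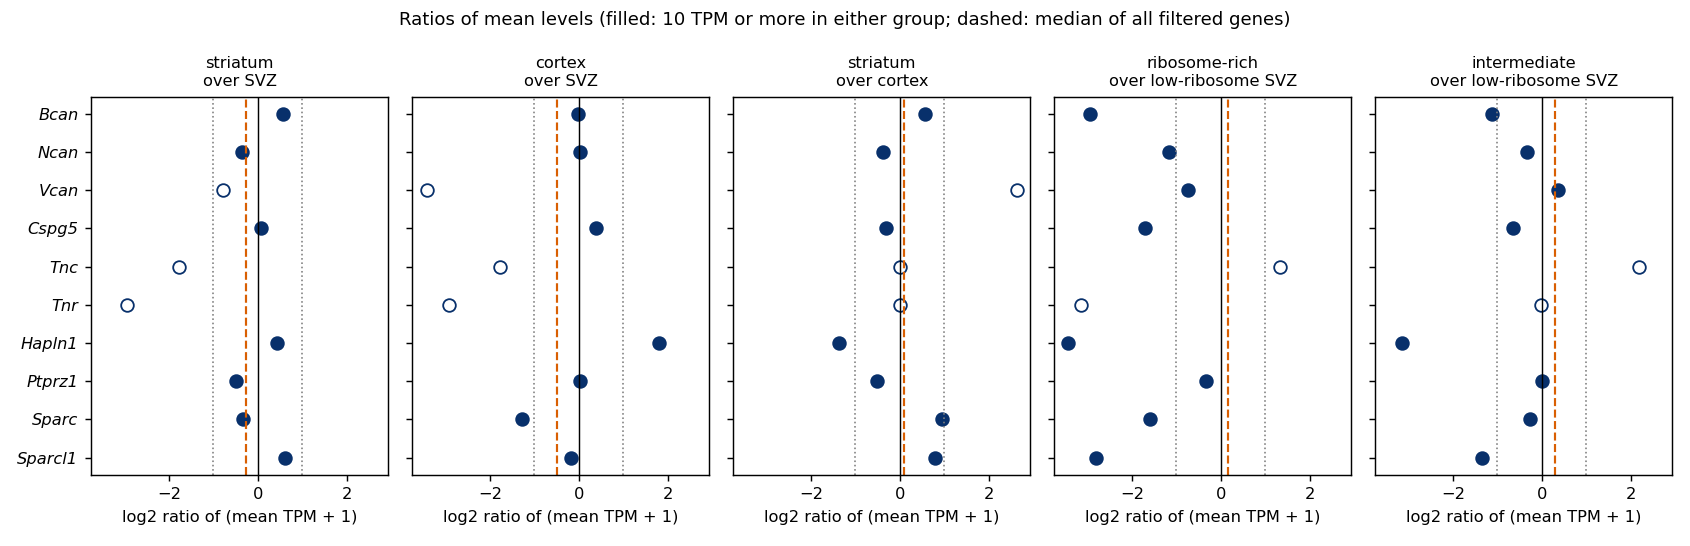
Log2 ratio of mean TPM plus 1 for each gene in 5 comparisons; filled points reach 10 TPM in either group, dotted lines mark 2-fold, and the dashed line is the median of all filtered genes. The 7 filled points of striatum over SVZ lie inside the 2-fold lines, while 6 of 8 in ribosome-rich over low-ribosome cells lie left of them.

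Bcan was at 0, 157 and 834 TPM (lowest, median and highest) in ribosome-rich cells, against 0, 1689 and 5211 TPM in low-ribosome cells. The means were 223.5 and 1734 TPM, 7.73-fold lower on the scale of mean TPM plus 1 (log2 -2.95), and 15 of 21 ribosome-rich cells had the transcript against 99 of 100 low-ribosome cells. The classes overlapped, but the highest ribosome-rich cell lay under the median of the low-ribosome cells. Intermediate cells lay between them, at 54.2, 704 and 1723 TPM. Ncan differed less: it was at 0.05, 37.7 and 238 TPM in ribosome-rich cells and 0, 125.9 and 536 TPM in low-ribosome cells (log2 -1.17), and 19 of 21 ribosome-rich cells still had it, against 91 of 100. Of the 21 ribosome-rich cells, 6 lacked Bcan and 2 lacked Ncan at 1 TPM. Vcan was detected in 10 of 100 low-ribosome cells (10%, interval 4.90 to 17.6%), in 2 of 12 intermediate cells and in 4 of 21 ribosome-rich cells (19.05%, interval 5.45 to 41.9%). Its mean passed the filter through the low-ribosome class, at 5.67 TPM in ribosome-rich against 10.1 TPM in low-ribosome cells (log2 -0.73). Without 1 low-ribosome cell with progenitor markers, the low-ribosome mean of Vcan was 6.79 TPM.

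Hapln1 was detected in 41 of 100 low-ribosome cells (41%, interval 31.3 to 51.3%), at up to 268 TPM, in 1 of 12 intermediate cells, at 52.6 TPM, and in 1 of 21 ribosome-rich cells (4.76%, interval 0.120 to 23.8%), at 71.3 TPM. It was 10.9-fold lower in ribosome-rich cells on the scale of mean TPM plus 1 (log2 -3.44). With 10 TPM added in place of 1 the log2 ratio was -2.09. Where Hapln1 was detected it was mostly well above the limit: 2 of the 41 low-ribosome cells with the transcript held less than 10 TPM, and the median of the 41 was 107.7 TPM. Depth is unknown, so cells that lack the transcript cannot be told from cells in which it was missed. The 1 intermediate cell with Hapln1 is also 1 of the 2 SVZ cells with progenitor markers.

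Cspg5 was at 0, 52.4 and 324 TPM in ribosome-rich cells, against 9.85, 292 and 1068 TPM in low-ribosome cells (log2 -1.71). It was undetected in 6 of 21 ribosome-rich cells and in none of the 100 low-ribosome cells. Ptprz1, the receptor gene, was not past 2-fold. It was at 0.45, 182 and 485 TPM in low-ribosome cells, 0, 147 and 538 TPM in intermediate cells, and 0.74, 139 and 482 TPM in ribosome-rich cells, with means of 196, 197 and 156 TPM in that order of classes. The log2 ratio of ribosome-rich over low-ribosome cells was -0.33, and 20 of 21 and 99 of 100 cells had the transcript. Ptprz1 made up 13.3% of the summed TPM of the 10 genes in ribosome-rich cells and 3.21% in low-ribosome cells. In single cells, Ptprz1 exceeded Bcan in 2 of 100 low-ribosome cells, in 2 of 12 intermediate cells and in 12 of 21 ribosome-rich cells.

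Sparcl1 was at 0, 208 and 1999.5 TPM in ribosome-rich cells, against 301, 2891 and 7496 TPM in low-ribosome cells. The mean was 7.02-fold lower on the same scale (log2 -2.81), and 14 of 21 against 100 of 100 cells had the transcript. Sparc was at 0, 0 and 1062 TPM in ribosome-rich cells and 0, 416 and 1876 TPM in low-ribosome cells (log2 -1.59). The 7 of 21 ribosome-rich cells that had Sparc held 19.9 to 1062 TPM, with a median of 383 TPM, against 501 TPM in the 85 of 100 low-ribosome cells that did, and all 12 intermediate cells had it.

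In intermediate against low-ribosome cells, 3 of 8 filtered genes were 2-fold or more lower, where 18.3% of all filtered genes were. These were Hapln1 (log2 -3.15), Sparcl1 (-1.36) and Bcan (-1.13). Hapln1, at 4.39 TPM in intermediate cells, passed the filter only through the low-ribosome class. Cspg5 (-0.64), Ncan (-0.32), Sparc (-0.27) and Ptprz1 (0.01) were within 2-fold. With the classes set at 2% and 5% in place of 3% and 6%, Bcan and Sparcl1 were at -0.53 and -0.44 and no longer past 2-fold.

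**Figure D4:**
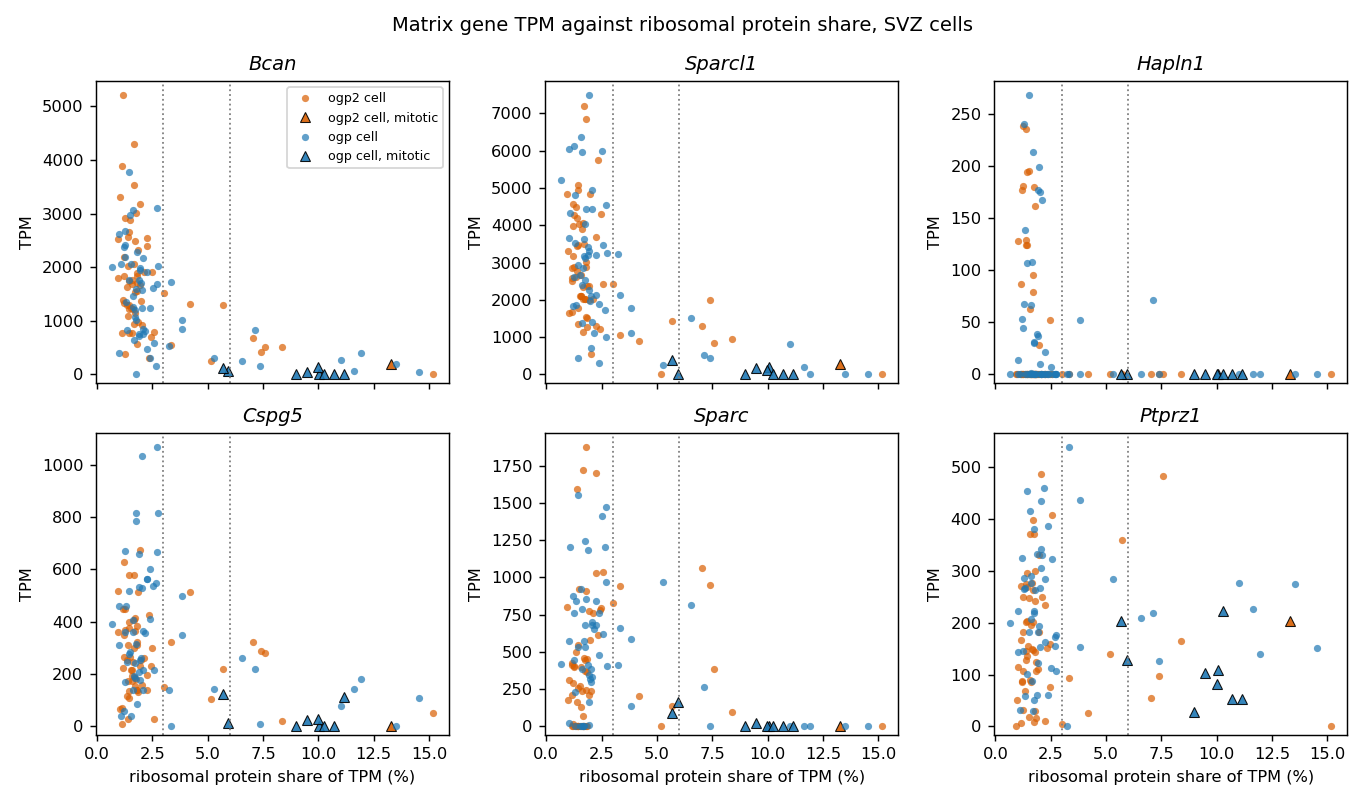
TPM of 6 genes against the percent of TPM in ribosomal protein genes in the SVZ cells, coloured by name series (ogp2 orange, ogp blue), with triangles for mitotic cells and dotted lines at 3% and 6%. At 6% or more, Hapln1 is above 1 TPM in 1 cell, Bcan reaches 834, Sparcl1 1999.5 and Sparc 1062 TPM, and the highest Ptprz1 value is 482 TPM, against 485 TPM under 3%.

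Within the ribosome-rich class, the 8 mitotic cells were lower than the 13 non-mitotic cells in several of the genes. Of 6 filtered genes 5 were 2-fold or more lower, against 24.2% of all filtered genes lower. Bcan averaged 48.1 TPM in mitotic cells and 331 TPM in non-mitotic ones, Sparcl1 97.6 and 659.6 TPM, Cspg5 20.9 and 152 TPM, and Ncan 27.7 and 77.05 TPM. Sparc was detected in 1 of 8 mitotic cells, at 19.9 TPM, and in 6 of 13 non-mitotic cells. Its means were 2.49 and 275 TPM, so Sparc passed the filter only through the non-mitotic cells. Ptprz1 was detected in all 8 mitotic cells, at 28.6 to 221 TPM, with a mean of 106.4 TPM against 186 TPM in non-mitotic cells (log2 -0.80). Mitotic cells also had more genes detected, with a median of 7009.5 against 4933. Without the mitotic cells, ribosome-rich cells were still lower than low-ribosome cells in Bcan (log2 -2.38), Sparcl1 (-2.25), Hapln1 (-2.88) and Cspg5 (-1.14). Ncan (-0.77) and Sparc (-0.91) were no longer past 2-fold, which leaves 4 of 8 filtered genes lower, against 22.7% of all filtered genes. Hapln1, at 5.50 TPM in the non-mitotic cells, passed the filter only through the low-ribosome class.

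The difference was looked at within each name series. In ogp, with 15 ribosome-rich and 46 low-ribosome cells, 6 of 7 filtered genes were 2-fold or more lower, against 27.3% of all filtered genes. In ogp2, with 6 and 54 cells, 6 of 10 were lower and 1 higher, against 27.3% lower and 30.2% higher. The ogp2 count includes Vcan and Tnr, whose highest cell is 1 low-ribosome ogp2 cell with progenitor markers. Without that cell both genes were under the filter, and 4 of 8 were lower in ogp2. The higher gene is Tnc, present in 2 of 6 ribosome-rich ogp2 cells, and it passed the filter only through that class. Hapln1 passed it only through the low-ribosome class in both series. Bcan was lower in both (log2 -3.29 in ogp and -2.28 in ogp2), and so were Sparcl1 (-3.61 and -1.76), Hapln1 (-3.09 and -5.51) and Ncan (-1.03 and -1.76). Ptprz1 was within 2-fold in both (-0.55 and -0.06). Sparc and Cspg5 depended on the series: Sparc averaged 73.4 TPM in ribosome-rich and 604 TPM in low-ribosome cells of ogp (log2 -3.02), but 415 and 443 TPM in ogp2 (-0.09), and Cspg5 was at -2.36 in ogp and -0.77 in ogp2. Of the 8 mitotic ribosome-rich cells, 7 are ogp cells and 1 is an ogp2 cell.

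Across all SVZ cells the Spearman correlation of TPM with ribosomal share was -0.61 for Bcan, -0.60 for Sparcl1, -0.36 for Ncan and Hapln1, -0.26 for Cspg5, -0.07 for Sparc and 0.01 for Ptprz1. Points share a library per cell, and Sparcl1 correlated with the number of genes detected about as much (-0.59). Bcan and Sparcl1 kept the negative sign in ogp (-0.70 and -0.71) and ogp2 (-0.44 and -0.50), as did Ncan, Hapln1 and Cspg5. Sparc and Ptprz1 changed sign between the series: Sparc was at -0.35 in ogp and 0.21 in ogp2, and Ptprz1 at -0.14 and 0.07. Within the 100 low-ribosome cells Bcan was at -0.28, Sparcl1 at -0.21 and Sparc at 0.33. These values describe cells and carry no test.

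Astrocytes were then set against low-ribosome SVZ cells alone. Striatum differed 2-fold in 0 of 8 filtered genes, where 38.7% of all filtered genes did, and its Bcan and Sparcl1 were at log2 0.27 and 0.31, in place of 0.57 and 0.62 against all SVZ cells. Cortex differed in 3 of 8, against 63.4% of all filtered genes: Hapln1 was higher (1.43), Sparc was lower (-1.46), and Vcan was listed at 0 in all 4 cells. Vcan passed the filter through the low-ribosome class, where 10 of 100 cells had it, and 0 of 4 cells does not show a lower share (interval up to 60.2%). Without the low-ribosome cell with progenitor markers Vcan was under the filter, and the counts were 0 of 7 for striatum and 2 of 7 for cortex.

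Tenascin transcripts were rare. Tnr was present in 2 SVZ cells (1.504%, interval 0.183 to 5.33%) and in no astrocyte (0 of 13 striatal cells, interval up to 24.7%). It stood at 786 TPM in a low-ribosome ogp2 cell and at 93.02 TPM in an intermediate ogp cell. These were the 2 SVZ cells in which all 7 measured markers of oligodendrocyte progenitors were detected, and no other SVZ cell had more than 2 of them. Pdgfra, the growth factor receptor that marks these progenitors, was at 1177 and 245 TPM in the same cells, in that order, and the transcription factor gene Olig1 at 3698 and 5597 TPM. The O4 negative gate would remove late cells of that lineage, and whether early ones pass it was not tested. The ogp2 cell held the highest Vcan value of all 150 cells (337 TPM), and the ogp cell had 57.9 TPM. Ptprz1 was at 485 and 437 TPM in them, and Bcan at 926 and 1017 TPM. Without these 2 cells the SVZ mean was 6.80 TPM for Vcan, in place of 9.67, and 0.0033 TPM for Tnr, in place of 6.62, and Vcan was then detected in 14 SVZ cells. For the other 8 genes, the SVZ mean moved by less than 2-fold.

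Tnc was present in 6 SVZ cells (4.51%, interval 1.67 to 9.56%), at 11.5 to 120.7 TPM, and listed at 0 in all 17 astrocytes. Of the 6 cells, 1 was low-ribosome, 2 were intermediate and 3 ribosome-rich, so that 5 of the 33 cells above the lower limit and 1 of the 100 under it (interval up to 5.45%) had it. Only 1 of the 6, at 95.8 TPM, was a cell with progenitor markers, and none of the 8 mitotic ribosome-rich cells had Tnc. Tnc did not pass the level filter in this contrast.

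How closely the genes were tied to each other from cell to cell depended on the measure. Over all SVZ cells the highest Spearman correlation among 7 of the genes (without Vcan, Tnc and Tnr) was that of Bcan with Sparcl1 (0.54), and next that of Bcan with Ncan (0.44). Pearson's r of log2(TPM + 1) was 0.73 for Bcan with Sparcl1 and 0.38 for Bcan with Ncan. It was 0.57 for Cspg5 with Sparcl1 and 0.54 for Bcan with Cspg5. The values that follow are Spearman correlations. Within low-ribosome cells Bcan and Sparcl1 were at 0.19, while Bcan and Ncan were at 0.35 (0.44 in ogp and 0.27 in ogp2). Hapln1 and Sparc were at -0.35 in low-ribosome cells (-0.48 in ogp and -0.21 in ogp2), the only pair of these 7 genes under -0.2 in that class. The cells share TPM as a closed sum, and these values are descriptions.

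**Figure D5:**
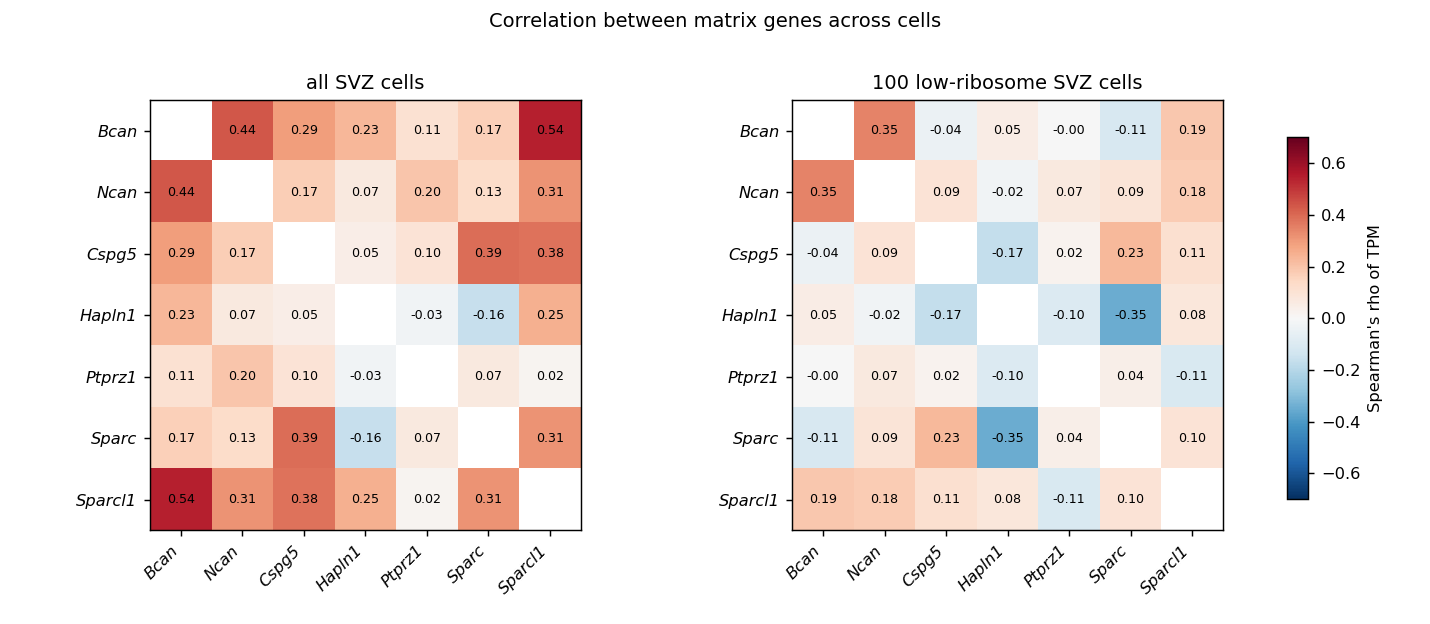
Spearman's rho of TPM between 7 of the genes, over all SVZ cells (left) and over the 100 low-ribosome cells (right), on a colour scale from -0.7 (blue) to 0.7 (red). The Bcan and Sparcl1 square is 0.54 on the left and 0.19 on the right, while Bcan and Ncan are at 0.44 and 0.35.

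Among 5837 genes, those most like each of the 6 widely detected members were ranked by Pearson's r of log2(TPM + 1) over all SVZ cells. Bcan was most like Aldoc (0.81), Apoe (0.78) and Atp1b2 (0.78), and Sparcl1 like the same 3 genes (0.86, 0.83 and 0.82), which encode an aldolase, an apolipoprotein and a sodium pump subunit of astrocytes. Cspg5 was most like Apoe (0.71), Plpp3 (0.71) and Ttyh1 (0.68). Ptprz1 stood apart, with Malat1 (0.47), a nuclear long RNA, Per3 (0.32) and Adgrl1 (0.29) as its nearest genes. Ncan had Mfge8 (0.38), Bcan (0.38) and Camk2g (0.37), and Sparc had Fxyd1 (0.48), Ttyh1 (0.48) and Sparcl1 (0.47). In low-ribosome cells alone, Bcan was at 0.28 with Aldoc, 0.05 with Apoe and 0.20 with Atp1b2. Sparcl1 was at 0.06, 0.25 and 0.48 with the same genes in that class, and Ncan was at 0.39 with Bcan. With their own 3 nearest genes, in the order given, Cspg5 was at 0.08, 0.04 and 0.04 there and Sparc at 0.06, -0.08 and 0.04. Ptprz1 was at 0.33, 0.25 and 0.23.

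Further lists, 5 in number, of matrix genes were followed in the same contrast of ribosome-rich over low-ribosome SVZ cells. Of 31 ligands and receptors of these proteins, 18 passed the filter, 12 of them 2-fold or more lower and 3 higher (median log2 -1.88). Ptn, which encodes the Ptprz1 ligand pleiotrophin, averaged 186 TPM in ribosome-rich cells (SD 219) and 779.6 TPM in low-ribosome cells (SD 364). Cntn1, which encodes contactin 1, another partner of the Ptprz1 protein, reached 1 TPM in 0 of 21 ribosome-rich and 23 of 100 low-ribosome cells, and the phosphatase receptor gene Ptprf in 0 of 21 and 39 of 100. Of 22 proteases and inhibitors, 9 passed the filter, 6 of them lower and 1 higher (median -2.56). The lower ones include the metalloprotease inhibitor genes Timp4, at 31.9 against 439.6 TPM, Timp3, at 39.6 against 508 TPM, and Timp2, at 6.13 against 55.02 TPM.

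Of 25 genes of chondroitin sulfate synthesis, 12 passed the filter, 5 lower and 1 higher (median -0.91). Slc35d1, a nucleotide sugar transporter gene, was at 5.48 TPM in ribosome-rich cells against 49.5 TPM in low-ribosome cells, Csgalnact1, which encodes a chain-starting transferase, at 6.47 against 48.7 TPM, and Ugdh, whose enzyme makes UDP-glucuronic acid, at 9.58 against 63.2 TPM. Each was detected in 4 or 5 of 21 ribosome-rich cells. Of 24 other matricellular genes, 9 passed, 5 lower and 2 higher (median -1.01), with Gpc6, a glypican gene, at 7.22 against 35.2 TPM. Of 14 other lectican, link and hyaluronan genes, 5 passed, 1 lower and 2 higher (median 0.82). The higher ones were Hmmr, a hyaluronan receptor that also serves in the spindle, at 58.99 TPM in 7 of 21 ribosome-rich cells against 0.17 TPM and 0 of 100 low-ribosome cells, and Tnfaip6, a hyaluronan-binding protein gene, at 43.3 against 15.3 TPM. All 7 ribosome-rich cells with Hmmr were mitotic: it averaged 154.7 TPM in mitotic and 0.067 TPM in non-mitotic ribosome-rich cells. These lists stand beside the same background of 23.0% lower and 26.8% higher over all filtered genes.

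In striatum over SVZ, 0 of the 7 filtered matrix genes were past 2-fold. Of 18 filtered ligands and receptors, 5 were lower and 0 higher (median -0.56). Of all filtered genes in this contrast, 28.3% were lower and 12.3% higher. Egfr averaged 6.38 TPM in striatum and 55.4 TPM in SVZ, and Itgb1, the integrin beta 1 gene, 7.90 and 57.2 TPM. Of 9 filtered matricellular genes 4 were lower and 2 higher, and Thbs4, the thrombospondin 4 gene, was listed at 0 in all 17 astrocytes and averaged 80.4 TPM in SVZ, in 38 cells. Of 12 filtered genes of chondroitin sulfate synthesis 2 were higher and 2 lower, and Ugdh was one of the higher, at 178 TPM in striatum against 50.5 TPM in SVZ.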

How the data were processed

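Single cells were profiled by Smart-seq2. The deposited values are TPM, made by the authors; the submitters' processing notes name STAR 2.4.0g1, RSEM 1.2.18 and mm10, and the annotation is not given in the sources used here. TPM was recognised from values and column sums. Identifiers (43309 listed, 42425 with a symbol in the reference table) were reduced to 42405 symbols, keeping the one with the highest mean. In 5 SVZ cells of the ogp series the listed genes summed to 66189 to 309864 TPM, and in the others to at least 999576. All cells were brought to a sum of 1000000.

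Groups were compared by the log2 ratio of mean TPM plus 1, for genes of 10 TPM or more in either, called past 2-fold. Depth is unknown and cells are not replicates, so no test was run. The 10 members and all lists were chosen with earlier results of these data known. Named genes outside the members are up to 3 per list and comparison with the largest ratios at 20 TPM or more in the higher group, from which examples were chosen after their values were seen, nearest genes at detection in 20% or more of cells, and markers; Ptn, Acan and the Hapln genes were named after their values were seen. A cell with 5 or more of 12 mitosis genes is mitotic. The 18 bulk libraries were not analysed here. Of 8 progenitor markers 7 matched, and 5 matrix genes matched through older symbols. Ratios were tested on simulated data. Alternatives were another pseudocount, filters, scalings, class limits, series and cells left out; those on progenitor-marker cells, on classes within series, and the promoter letters were chosen after seeing the data. Python 3.11.15, pandas 2.3.3, numpy 2.4.6, scipy 1.17.1 and matplotlib 3.10.9 were used.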

Additional observations from a re-analysis of the deposited data

Results flagged for a closer look

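In the 4 cortex cells, the highest Cspg5 value, 925.54 TPM, lies far from the other 3, its gap being 0.861 of the whole range against a critical value of 0.829. The lowest Ptprz1 value in cortex, 20.67 TPM, is likewise far from the other 3, at 0.878 of the range. Chance would flag about 1 in 20 such groups if the values were independent and normally distributed, which was not checked for these cells. The flag is therefore a description only. Cortex was looked at for each of the genes detected there. Without the highest cell, cortex Cspg5 would lie at 139 to 249 TPM, which overlaps striatum (185 to 579 TPM) and SVZ.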

How the results depend on the processing

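No direction of a called value reversed under the alternatives. In ribosome-rich over low-ribosome cells the count of 6 ran from 4 without mitotic cells and 5 at a filter of 50 TPM to 8 without a filter. Bcan ranged from -4.76 to -2.28, Sparcl1 from -5.59 to -1.76 and Hapln1 from -5.51 to -2.09. Sparc (-5.88 to -0.09), Cspg5 (-3.35 to -0.77) and Ncan (-1.76 to -0.77) lost the 2-fold call under some settings, and Ptprz1 (-0.55 to -0.06) did not reach it. Vcan, not called, ran from -2.29 to 0.31. The count of genes past 2-fold in striatum over SVZ, 0, became 2 without a filter on low values, 2 with logs averaged over cells (Bcan 1.397, Sparcl1 1.64) and 2 against ogp2 cells alone (Vcan and Tnr). Vcan and Tnr passed the filter there only through the ogp2 cells, at means of 11.6 and 12.1 TPM. Their highest values, 337 and 786 TPM, are those of the 1 ogp2 cell with progenitor markers. In cortex over SVZ, 2 became 5 without a filter and 4 against ogp2 cells alone, with 1 to 2 on leaving out each cortex cell. In striatum over cortex, 1 became 2 without a filter, 3 with averaged logs and 2 with group means scaled by the median ratio, where Hapln1 was at -0.98, and 1 to 2 on leaving out each cortex cell. In intermediate over low-ribosome cells, 3 became 7 within ogp. The cause of these shifts was not tested. Counts in the cortex rest on 4 cells, and TPM gives no depth from which a limit of detection could be set. No paired analysis was possible because no cell is tied to an animal or pool and the results come from no test.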

Other observations

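The 2 name series of SVZ cells were also compared within the low-ribosome class. Of 9 filtered genes, 2 were 2-fold or more higher in ogp2 than in ogp cells and 0 were lower, where 11.8% of all filtered genes were higher and 15.3% lower. Both were sparse: Vcan averaged 13.7 TPM in ogp2 and 5.82 TPM in ogp cells, detected in 5 of 54 and 5 of 46, and Tnr was detected in 1 of 54 and 0 of 46. Without the 1 ogp2 cell with progenitor markers, Vcan averaged 7.62 TPM in ogp2 cells, both genes were under the filter, and 0 of 7 filtered genes were past 2-fold. Cspg5 averaged 277 TPM in ogp2 cells (SD 156) and 403 TPM in ogp cells (SD 249), and Ptprz1 174 TPM (SD 115.2) and 223 TPM (SD 117.1), both within 2-fold. Hapln1 was present in 18 of 54 ogp2 cells (33.3%, exact interval 21.1 to 47.5%) and in 23 of 46 ogp cells (50%, interval 34.9 to 65.1%), with nearly equal means of 45.8 and 48.2 TPM.

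Cd44, which encodes a hyaluronan receptor, was rare: it was detected in 0 of 100 low-ribosome, 3 of 12 intermediate and 3 of 21 ribosome-rich SVZ cells, in 1 of 13 striatal cells, at 155 TPM, and in 0 of 4 cortex cells. Hapln3 reached 555 TPM in a low-ribosome cell and was detected in 3 of 100 low-ribosome, 1 of 12 intermediate and 4 of 21 ribosome-rich cells.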
